A study of Zea mays with 4 samples.

Results

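The anthocyanin genes described here are a2 (LOC606406), fht1 (LOC542712), c1 (LOC541757) and pl1 (LOC732799) of maize, 2 biosynthetic enzymes and 2 regulators. Their members are all probe sets that the annotation of the array platform assigns to these genes, by symbol or synonym. The rule itself uses no measured value, but the genes were picked with earlier results of these data known. These are 4 of the 1108 named genes, with 5 of 17621 probe sets: 1 each for a2, fht1 and pl1 and 2 for c1. Total RNA of 2 maize inbreds, Cm489 and F98902, had been hybridised to 4 Affymetrix maize arrays, 2 for each line, in a series on the diversity of the maize cell wall. All plants were grown in soil compost under long days, and aerial material was taken at the stage of flower development. No treatment, genetic modification or plant age is given, and neither the organ nor its pigmentation is stated. The titles hold a separate code per sample (pl9 and pl10 for Cm489, pl6 and pl18 for F98902), which the labels do not explain. Whether the arrays of a line came from separate plants is thus not stated, and p-values measure only the spread between these samples, which may be technical.

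Anthocyanins are the red and purple flavonoid pigments of maize kernels, leaves, stems and anthers. The enzyme encoded by fht1, flavanone 3-hydroxylase, makes dihydroflavonols in the middle of the pathway. The enzyme encoded by a2, anthocyanidin synthase, acts later and turns leucoanthocyanidins into anthocyanidins. Both belong to the 2-oxoglutarate-dependent dioxygenases. The genes c1 and pl1 encode closely related R2R3 MYB activators that work with a bHLH partner of the r1 and b1 family. C1 is known for pigment in the aleurone and scutellum of the kernel and Pl1 for pigment in the plant body.

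Across the 4 arrays 1 of the 4 genes, the late enzyme gene a2, gave a signal above the floor of the measurement. The mid-pathway enzyme gene fht1 and both MYB genes lay at the floor in both lines. The mean of a2 was 9.28 ± 0.18 (SD, n = 2) in Cm489 and 9.28 ± 2.57 (SD, n = 2) in F98902, a difference of -0.0039 that did not pass the test. The F98902 arrays lay far apart, with one below and one above both Cm489 arrays. All values are log2 signals from GCRMA, which pulls probe sets without specific signal to low values with little spread. A value under log2 4 is called at the floor here and gives no level.

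The probe set of a2 read 9.41 in Cm489 replicate 1, 9.15 in Cm489 replicate 2, 7.46 in F98902 replicate 1 and 11.09 in F98902 replicate 2. Both Cm489 arrays therefore lay between the F98902 arrays, and the lines overlapped. In bulk tissue fewer cells of a type and less RNA per cell cannot be told apart.

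The probe set of fht1 was at the floor throughout, at 2.72 and 2.70 in the replicates 1 and 2 of Cm489 and at 2.71 and 2.69 in those of F98902. Its whole range over the 4 arrays was 0.0295. No direction between the lines can be read from such values.

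The first probe set of c1 read 1.90 and 1.88 in Cm489 and 1.91 and 1.88 in F98902. The second, whose ID ends in the _s_at suffix of probes that can match several transcripts, read 2.07 and 2.04 in Cm489 and 2.07 and 2.03 in F98902. Both c1 probe sets were thus at the floor in both lines, with ranges of 0.0304 and 0.0388.

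The probe set of pl1 read 1.83 and 1.82 in Cm489 and 1.83 and 1.81 in F98902, a range of 0.0197. On each of the 4 arrays, then, 1 of the 2 enzyme genes and 0 of the 2 MYB genes had a signal above the floor. The probe signals of different probe sets cannot be ranked against each other, because probes differ in how strongly they bind. The comparison of enzymes with regulators is therefore one of floor status and of differences between arrays.

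**Figure D1:**
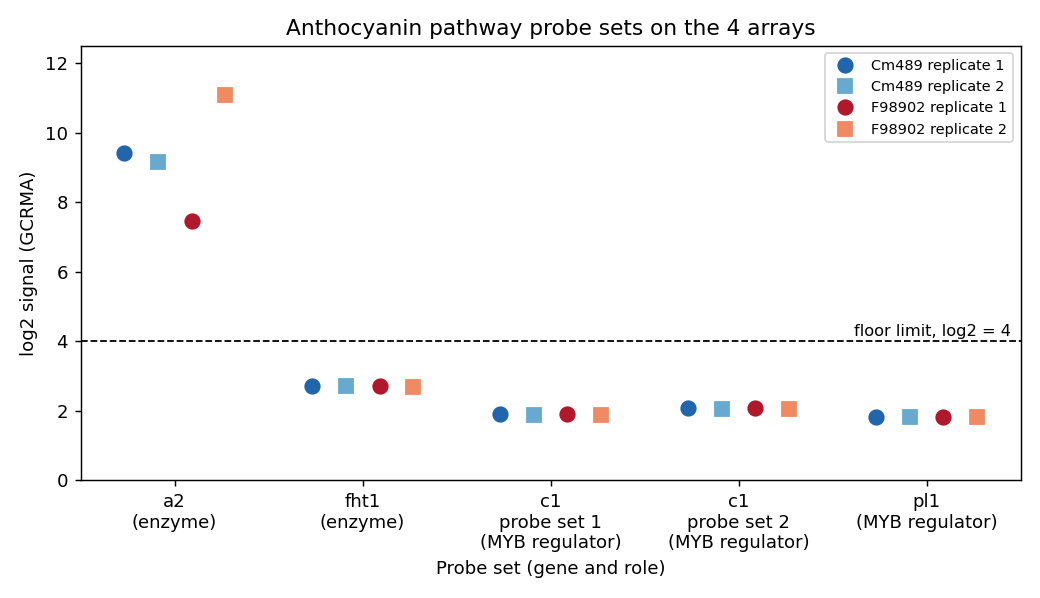
Log2 GCRMA signal of the 5 probe sets of a2, fht1, c1 and pl1 on each of the 4 arrays, 1 point per array with circles for replicate 1 and squares for replicate 2. The dashed line marks the floor limit of log2 4. The a2 points run from 7.46 to 11.09 and the points of the other 4 probe sets lie between 1.81 and 2.72.

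A floor reading was common on these arrays. Of all 17621 probe sets, 5713 (32.4%) lay under log2 4 on all 4 arrays, against 4 of the 5 anthocyanin probe sets. Of 1108 named genes, 241 (21.8%) had every probe set there, as fht1, c1 and pl1 did. The median range over the 4 arrays among the 5713 floor probe sets was 0.0379, so the ranges of fht1, c1 and pl1, from 0.0197 to 0.0388, were of the size usual at the floor. The values of both c1 probe sets and of pl1 ran in the order F98902 replicate 1, Cm489 replicate 1, Cm489 replicate 2, F98902 replicate 2, from high to low. The medians of the floor probe sets, at 2.109, 2.100, 2.085 and 2.076, ran in the same order of arrays. For fht1 the first pair in that order was exchanged.

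A probe set at the floor does not show that its gene is silent. Among 153 named genes with several probe sets and at least 1 of them above the limit on all 4 arrays, 69 (45.1%) had another probe set under the limit on all 4. The lignin regulator gene myb42, described below, is one of them. For fht1 and pl1 there was 1 probe set each, so no second reading was at hand. For c1 both probe sets were at the floor, as for 43 (19.4%) of 222 named genes with at least 2 probe sets. Absent transcript and probes that mismatch the alleles of a line cannot be told apart.

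The lines were compared with limma across 11242 probe sets at or above log2 4 on at least 2 of the 4 arrays, with Benjamini-Hochberg adjustment over all of them. Of these probe sets 1.78% passed an adjusted p of 0.05, with 0.934% higher and 0.845% lower in F98902, and 10.5% had an unadjusted p under 0.05. The share passing rests on the setting, as the 200 calls behind it became 8 with an intensity-dependent robust prior and 0 with a replicate block, without Cm489 replicate 1, without Cm489 replicate 2, without F98902 replicate 1 or without F98902 replicate 2. Among the anthocyanin probe sets 1 could be tested, that of a2, and it did not pass (SE 1.34, limma unadjusted p = 0.998, adjusted p = 0.999). The 95% interval of its difference, F98902 minus Cm489, ran from -3.71 to 3.70 on the log2 scale. The test therefore does not show that the lines have equal a2 signal. Without F98902 replicate 1 the difference was 1.81 and without F98902 replicate 2 it was -1.82, and neither passed (limma adjusted p = 0.561 and 0.350).

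The spread of a2 within F98902 was large for these arrays. The signal of F98902 replicate 2 was 3.63 above that of replicate 1 on the log2 scale, which is 12.4-fold. In Cm489, replicate 2 minus replicate 1 was -0.26. A gap between the F98902 arrays at least as large as that of a2 was found in 476 of the 11242 tested probe sets (4.23%), and the median gap without regard to sign was 0.73 in F98902 and 0.63 in Cm489. Of those 476 probe sets, a2 included, 238 were higher in replicate 2. A Cm489 gap no larger than that of a2 was found in 37 of the 476, again counting a2. F98902 arrays on either side of both Cm489 arrays, the arrangement of a2, occurred in 1592 tested probe sets (14.2%). With 1 array on each side these gaps have no test.

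**Figure D2:**
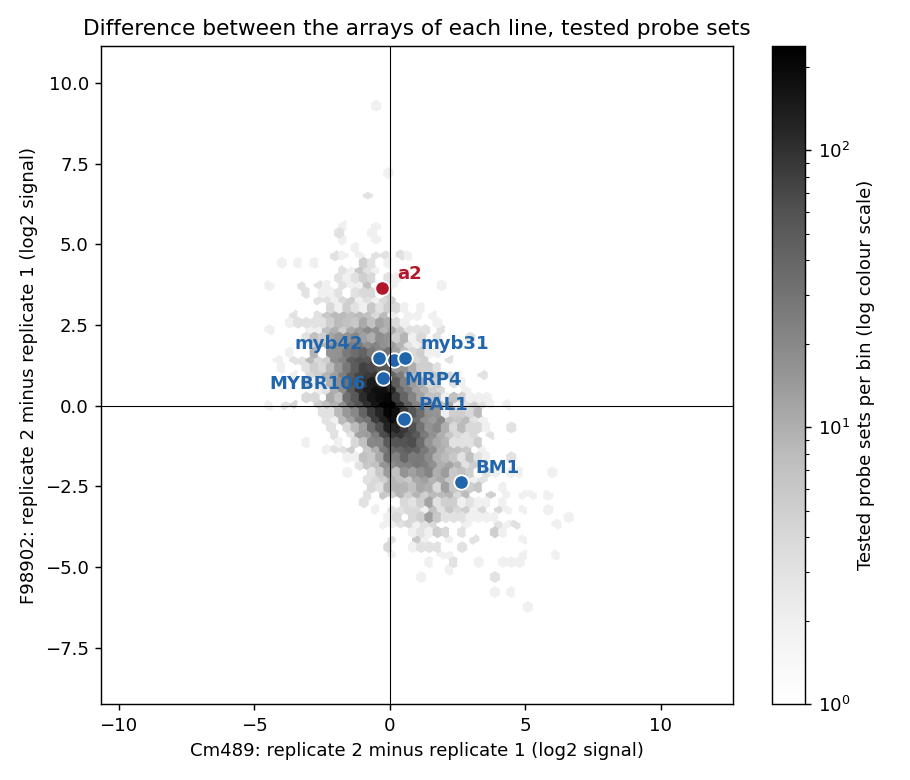
Difference between the arrays of a line for the 11242 tested probe sets, replicate 2 minus replicate 1 in log2 signal, with Cm489 on the horizontal and F98902 on the vertical axis. Grey shading gives the number of probe sets per bin on a log colour scale, the red point is a2 and the blue points are the other tested pathway and MYB genes. The a2 point stands at -0.26 and 3.63, above those of MRP4, myb31, myb42 and MYBR106, while PAL1 and BM1 lie below 0 on the vertical axis.

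Several properties of the F98902 arrays differed where a2 did. The labels give 102 ug of RNA for F98902 replicate 1, the array with the lowest a2 signal, and 52 ug for F98902 replicate 2, the array with the highest. They give 100 ug for Cm489 replicate 2, where a2 was at 9.15, while no amount is used for Cm489 replicate 1, whose extraction text refers to replicate 2. The 5' minus 3' signal of the control genes, a measure of RNA integrity, was -0.83 in F98902 replicate 1 and -1.65 in F98902 replicate 2 for cyclophilin. GAPDH gave -2.02 and -3.65, and EF1-alpha gave -1.88 and -2.97. Ubiquitin ran the other way, at -1.60 and -1.36. In Cm489, where the a2 arrays lay close, the values in replicates 1 and 2 were -1.61 and -1.02 for cyclophilin, -4.10 and -3.27 for GAPDH, -3.42 and -4.44 for EF1-alpha and -1.60 and -1.55 for ubiquitin. Their part in the a2 gap was not tested.

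Marker genes of tissues also differed between the arrays of a line. All 5 matched genes of a secondary wall list, namely cesa10, cesa11, CesA12, bk2 and BM1, were above the floor. Their mean was 10.35 and 13.52 in replicates 1 and 2 of Cm489 and 12.96 and 10.74 in those of F98902. Of 6 matched green tissue genes 5 were tested, with a mean of 6.92 and 8.61 in Cm489 and 9.77 and 7.87 in F98902. The mean in Cm489 replicate 1 includes psad1 at 3.83 and rca1 at 3.99, both under the floor limit there, and so is no exact level. The sixth, pep1, was above the floor on 1 array, Cm489 replicate 2. In F98902, then, the array with the higher a2 signal was the one with the lower means of these lists. The same held in Cm489, but there replicate 2 minus replicate 1 of a2 was only -0.26. Without regard to sign, 75.1% of tested probe sets had a Cm489 gap at least as large. Over all tested probe sets the replicate 2 minus replicate 1 differences of the lines correlated at -0.558. In the green tissue list ME1 (LOC542233), for the malic enzyme that uses NADP, ran the other way in F98902, at 6.25 in replicate 1 and 8.88 in replicate 2. The other marker lists did not share this direction in F98902. The 4 tested genes of a kernel list, described below, had a mean of 6.29 and 7.28 in Cm489 and 6.44 and 6.46 in F98902. TUA1, the 1 tested gene of a pollen and anther list, read 10.55 and 11.21 in Cm489 and 11.15 and 11.78 in F98902. The part of these marker genes in the a2 gap was not tested either.

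**Figure D3:**
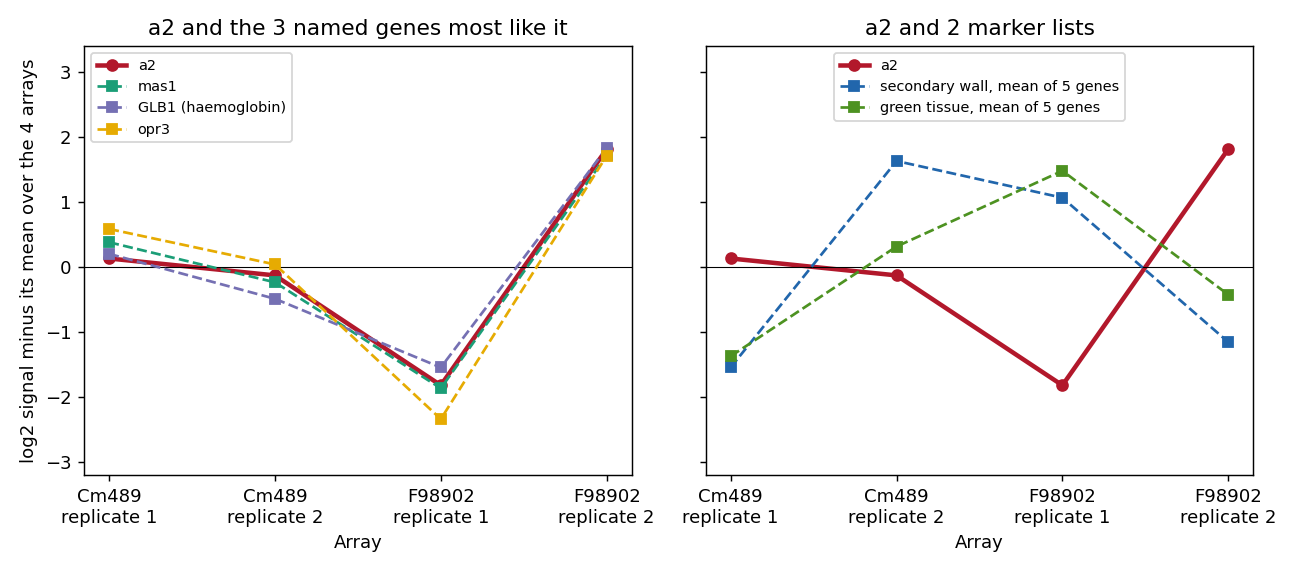
Log2 signal minus its mean over the 4 arrays, with a2 in red in both panels. Dashed lines join the points of 1 gene or list and imply no order of the arrays. The left panel shows the named genes most like a2. The right panel shows the mean of 5 secondary wall and of 5 green tissue genes. Both means stand high on F98902 replicate 1, where a2 is lowest, but the secondary wall mean is highest on Cm489 replicate 2.

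The pattern of a2 over the 4 arrays was set against that of 810 other named genes, by the root mean square difference of log2 values after centring each probe set on its own mean. The closest was mas1 (LOC542252), whose symbol is that of malate synthase, an enzyme of the glyoxylate cycle, with a difference of 0.146. It read 10.87 and 10.25 in Cm489 and 8.62 and 12.20 in F98902. The second was GLB1 (LOC541815), a haemoglobin gene also called Hb, at 0.229, with 9.33 and 8.64 in Cm489 and 7.58 and 10.96 in F98902. The third was opr3 (LOC732731), a gene of the oxophytodienoate reductase family, at 0.359, with 6.53 and 5.99 in Cm489 and 3.61, under the floor limit, and 7.66 in F98902. All of them had, like a2, a low F98902 replicate 1 and a high F98902 replicate 2, which follows from choosing them for likeness over these arrays. The median over the 810 genes was 1.45. With 4 arrays of 2 lines this likeness is a description of these arrays.

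Few other genes of the pathway could be read. Of 36 symbols in lists of flavonoid, regulatory and early phenylpropanoid genes, 5 matched a named probe set, namely MRP4, P, vp1, PAL1 and BM1. MRP4, also known as the low phytic acid gene lpa1, was matched by its symbol and was the only gene matched in the flavonoid list. The flavonoid genes c2, whp1, chi1, a1, bz1 and bz2 and the bHLH genes r1 and b1 were not analysed here, as 16168 probe sets carry no gene name. The MYB genes other than c1 and pl1 added 4, myb31, myb42, MYBR106 and MYB-IF35. Of these 9 genes 6 were tested, 2 higher and 4 lower in F98902, with a median difference of -0.31. Over all tested probe sets 48.8% were higher and the median was -0.019. By limma 0 of the 6 passed and 1, myb31, had an unadjusted p under 0.05.

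Both regulators from these lists were at the floor, as c1 and pl1 were. The gene P (also p1) encodes an R2R3 MYB that turns on the red phlobaphene pigments from an earlier branch of the flavonoid pathway. Its 5 probe sets read between 1.61 and 3.14. The gene vp1 encodes a seed transcription factor that activates c1 in the aleurone, and its 4 probe sets read between 1.48 and 2.45. Other kernel genes at the floor with every probe set were the globulin gene glb1 (LOC732801), the regulator o2, bt1, gz50 and the ae1 gene LOC541992. Of 11 genes matched to the kernel list 6 were at the floor in this way and 4 were tested, gz27, bt2, SBEIIb and, by its symbol alone, the haemoglobin gene GLB1. No sh2 probe set passed the filter, and one of its 2 was above the limit on Cm489 replicate 1.

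Not all MYB genes shared the floor reading. The lignin repressor gene myb31 (LOC100037768) read 9.98 and 10.53 in Cm489 and 7.24 and 8.72 in F98902. The difference of -2.27 (SE 0.68, limma unadjusted p = 0.0282) had an adjusted p of 0.373. Its relative myb42 (LOC100101513) read 10.99 and 10.62 in Cm489 and 8.69 and 10.16 in F98902 on one probe set, a difference of -1.38 (SE 0.66, adjusted p = 0.653). Its other probe set was at the floor, between 1.957 and 1.984. MYBR106 (LOC542677) read 9.33 and 9.08 in Cm489 and 8.27 and 9.12 in F98902, a difference of -0.51 (SE 0.50, adjusted p = 0.863). MYB-IF35 (LOC541969), an R2R3 MYB related to P, was above the floor on Cm489 replicate 2 alone, at 5.93 against 2.73 to 3.03 on the other arrays, and was not tested.

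Among the enzyme and transporter genes, MRP4 (LOC100125659), an ABC transporter gene matched by its symbol and also known as the low phytic acid gene lpa1, stood nearest to a2 in the order of its arrays. It read 11.80 and 11.96 in Cm489 and 11.06 and 12.48 in F98902. As for a2, F98902 replicate 1 was the lowest and replicate 2 the highest, but its F98902 arrays were 1.42 apart, against 3.63 in a2. The difference between the lines was -0.11 (SE 0.64, limma adjusted p = 0.987).

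The entry enzyme of the phenylpropanoid pathway, PAL1 (LOC542258), read 14.03 and 14.57 in Cm489 and 14.53 and 14.13 in F98902. BM1 (LOC542663), a cinnamyl alcohol dehydrogenase gene of the lignin branch, read 11.27 and 13.91 in Cm489 and 13.77 and 11.41 in F98902. In both genes F98902 replicate 1 was above replicate 2, the reverse of a2. F98902 replicate 1 was the lowest of the 4 arrays in MRP4, myb31, myb42 and MYBR106, 4 of the 6 tested genes, as it was in a2 and in 30.3% of all 11242 tested probe sets.

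**Figure D4:**
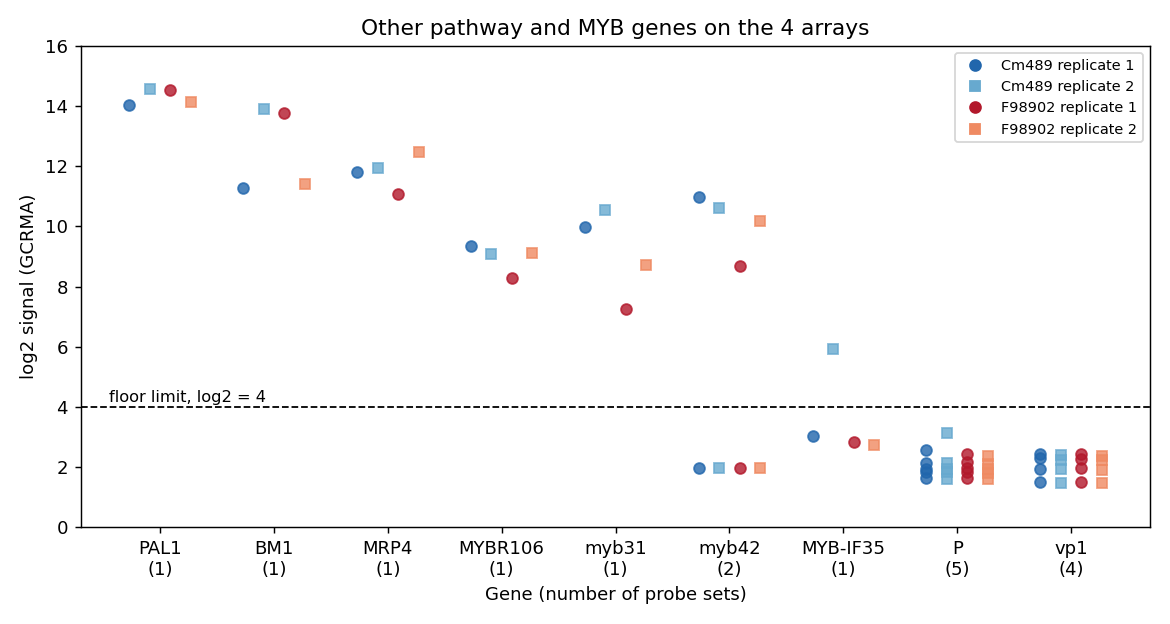
Log2 GCRMA signal of the 17 probe sets of 9 other pathway and MYB genes on the 4 arrays, 1 point per probe set and array, with the number of probe sets in brackets and the floor limit of log2 4 dashed. PAL1, BM1, MRP4, MYBR106, myb31 and 1 probe set of myb42 lie above the limit on every array, MYB-IF35 on 1 array, and all probe sets of P and vp1 lie under it.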

How the data were processed

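Total RNA of 4 samples, 2 of each maize line, was measured on Affymetrix maize arrays. The deposited table holds 1 log2 value per probe set and array, made with GCRMA per the submitters' processing notes. Neither its version nor its options are given in the sources used here. Base 2 was taken from the range of the values, 1.18 to 15.28. GCRMA's background step compresses dim probe sets to a floor, so differences there carry no level. Array medians ran from 7.00 to 7.12. The number of arrays limits the precision.

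After 113 controls were left out, 17621 probe sets remained. Those at or above log2 4 on at least 2 arrays were fitted with limma 3.58.1 in R 4.3.3 (lmFit, eBayes, two-sided, F98902 minus Cm489). The fit was tested on simulated data, with independent normal noise drawn from its own variance prior. Such data meet the assumptions of the fit, so they cannot show how it behaves on these arrays. An exact test of 2 against 2 arrays cannot go below p = 0.333. Gene names came from GEO's platform annotation, updated through Entrez numbers to RefSeq (Zm-B73-REFERENCE-NAM-5.0), in which 1377 of 1452 singly named probe sets matched. As the table names no genome build, no coordinates are given.

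Members, lists and tests were chosen with earlier results of these data known. Named were all member probe sets, genes of the fixed lists and the 3 genes nearest to a2 in pattern, with 1 probe set per gene, that of the highest mean, for summaries. Of the pollen list, 3 of 4 matched genes were at the floor and TUA1 was tested. Alternatives were other filters, priors, scalings, floor limits, a replicate block, all probe sets of a gene and leaving out each array.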

Additional observations from a re-analysis of the deposited data

How the results depend on the processing

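The floor reading of 4 of the 5 probe sets held under both scalings, with floor limits of log2 3 and 5 and without any 1 array. The a2 difference of -0.0039 did not pass in any setting run. It turned to 0.0515 with each array shifted to 1 median and to 0.0526 with quantile normalization, and over left-out arrays it ran from -1.82 to 1.81. Replicate 2 minus replicate 1 of a2 was -0.26 in Cm489 and 3.63 in F98902, against -0.33 and 3.57 with equal medians and -0.22 and 3.57 with quantile normalization. Of the 6 tested pathway and MYB genes, 2 were higher in F98902, against 1 with quantile normalization and 0 to 2 over left-out arrays. With no dim filter 7 of 9 were lower. The genes added there were P and vp1, at the floor on every array, and MYB-IF35, above it on Cm489 replicate 2 alone. No direction can be read from such floor values. With all 4 arrays, none of the pathway and MYB genes passed in any setting in which their calls were counted (limma). Their calls were not counted for the crossed pairing given below. The count of 200 probe sets past the threshold was 79 with no dim filter, 8 with an intensity-dependent robust prior, 115 with values under log2 4 raised to 4 and 0 to 0 over left-out arrays, where the remaining array of a line takes its spread from the other line (limma, with 786 to 1475 at an unadjusted p under 0.05). It was 0 under a replicate block, by number (limma, 776 at an unadjusted p under 0.05). The labels do not say that these numbers pair samples, and the correlation between same-numbered deviations was -0.558. The crossed pairing, added after the data were seen, gave 284. The cause was not tested.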
